A study of Mus musculus with 9 samples.

Results

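The genes described here are 32 genes of ciliary transport, the machinery that builds a cilium and moves proteins into and out of it. They were taken by name from a list: 7 subunits of the BBSome, 2 chaperonin-like genes, 11 genes of intraflagellar transport (IFT) complex B, 3 of IFT complex A, 4 kinesin-2 genes, 3 small GTPase genes of the ARL group, and Tulp3 and Cep290. Among the 24421 gene rows of the count table, all 32 were present, and all 32 were among the 20213 genes tested.

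RNA-seq was performed on the whole main olfactory epithelium (MOE), the odour-sensing tissue of the nose, of 9 mice labelled C57BL/6 and postnatal day 14. The mice belonged to a single line in which CRISPR-Cas9 removed TAAR enhancer 1, a noncoding element near Taar2, and comprised 3 wild-type, 3 heterozygous and 3 homozygous littermates, which carry the deletion on no copy, one copy or both copies of chromosome 10. The study's reporting summary gives a mixed background and an older age for this line, a difference that was not resolved. No separate effect of the line, such as a change elsewhere in the genome, can be told apart from the deletion.

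Olfactory sensory neurons carry long immotile cilia, and the receptors, the cyclase and the cation channel that detect odours sit in the membrane of these cilia. IFT-B trains are pulled towards the tip by kinesin-2 motors, IFT-A serves the return and the entry of membrane proteins, and the BBSome is an adaptor that binds membrane cargo and rides on the trains. Mutations in several of these genes cause Bardet-Biedl syndrome and related disorders, in which the sense of smell can be lost. The same genes are used by the motile cilia of respiratory cells, which line other parts of the nose.

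Reads in genes numbered from 24583906 to 32631951 among the libraries. After scaling to a common library size (CPM), 3 reads of a gene correspond to 0.0916 to 0.122 CPM. The 32 genes had between 196 and 6846 reads each per library. The reads carry no molecular identifiers, so limits from read numbers cover counting error only. Mice of one genotype differed beyond counting noise (chi-square over its degrees of freedom, 4.47 to 15.8). The labels do not say whether the mice came from separate litters, and p-values measure the spread between these mice. The deletion was visible in every homozygous library. Taar2 was at 2.61, 3.60 and 2.78 CPM in the wild-type libraries, at 2.32, 1.93 and 1.59 CPM in the heterozygous ones and at 0.0352, 0.0406 and 0 CPM in the homozygous ones. Taar3 and Taar5 had no read in any homozygous library, and Taar4 was at 0.0705, 0 and 0.0387 CPM. Markers of mature neurons were abundant, with 6087 TPM for Omp and 763 TPM for Cnga2, where TPM is the level per length of transcript. A group of 3 libraries stood apart in the receptor genes of the vomeronasal organ, which is not part of the MOE. The summed level of these genes was 64.4 CPM for heterozygous replicate 1, 113 CPM for homozygous replicate 2, 65.4 CPM for homozygous replicate 3 and 14.5 to 17.2 CPM for the other 6. With these 3 libraries included, no one of the 32 genes was called in any comparison of genotypes. Without them, homozygous replicate 1 is the only homozygous library, so such a fit cannot show whether the added vomeronasal reads matter. In whole tissue, fewer cells of a type and less RNA per cell cannot be told apart.

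The promoters of many ciliary genes hold an X-box, the site bound by RFX transcription factors, and those of the 32 genes were searched for it as a sequence feature that the choice of the genes did not use. RefSeq for GRCm38.p6 gave a promoter, 250 bases before to 50 after the start, for 29 of the 32 genes, and no entry was found for Ift80, Ift81 and Ift122. A total of 4 patterns were searched on both strands. The first was GTNNCC and GNAAC with 3 free bases between them, which was found in 5 of the 29 genes, or 17.2%, and in 2.49% of the 27025 genes with a promoter. A stricter form with GTTNCC and GGNAAC, 2 free bases apart, is contained in the first and was found in Bbs7 alone, or 3.45% of the 29 genes, against 0.529% of all. The single arm GTTGCC, which can overlap the first pattern, was found in 11 of the 29, or 37.9%, against 14.1%, and its longer form GTTGCCA in 3, or 10.3%, against 5.03%. A match describes letters only, and binding was not measured here. The matches to the first pattern are shown with the matched bases in capitals, 5′ to 3′ on the strand of the gene, to let the sites be compared. On the strand shown, the capitals of Bbs7, Bbs4 and the second Ift22 site read as the pattern, and those of Bbs1, Ift57 and the first Ift22 site read as it on the opposite strand.
Bbs7 (chr3:36613489-36613518, minus strand): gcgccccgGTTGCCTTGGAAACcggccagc
Bbs1 (chr19:4906605-4906634, minus strand): ctgagctgGTTGCCAAGGCGACgcctggga
Bbs4 (chr9:59353464-59353493, minus strand): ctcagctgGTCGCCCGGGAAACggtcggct
Ift57 (chr16:49699199-49699228, plus strand): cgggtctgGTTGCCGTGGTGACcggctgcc
Ift22, first site (chr5:136908079-136908108, plus strand): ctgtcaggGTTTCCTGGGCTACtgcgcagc
Ift22, second site (chr5:136908109-136908138, plus strand): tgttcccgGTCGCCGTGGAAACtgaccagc
The Bbs7 match ended 108 bases before the start, that of Ift57 74 bases before it and those of Ift22 50 and 20 bases before it. The matches of Bbs1 and Bbs4 lay just after the start base, from 1 to 14 and from 23 to 36 bases downstream of it.

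The 32 genes lay on 16 chromosomes, and Cep290 and Bbs10 shared chromosome 10 with the Taar cluster. Levels were first compared among the genes per length, as TPM over merged exons, averaged over the 9 libraries. Kif3a, the motor subunit of heterotrimeric kinesin-2, had the highest level at 215 TPM. Its partner motor Kif3b was at 141 TPM and Kifap3, the accessory subunit that joins them to cargo, at 154 TPM. Kif17, a separate kinesin-2 that helps bring the olfactory channel into olfactory cilia, was at 19.3 TPM, so that the kinesin-2 levels differed 11.1-fold.

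Among the BBSome subunits, Bbs2 was at 114 TPM, Ttc8 at 67.0, Bbs4 at 65.1, Bbs1 at 63.2, Bbs5 at 49.9, Bbs9 at 47.1 and Bbs7 at 46.4 TPM. The subunits of this complex thus lay within 2.45-fold of each other. The chaperonin-like genes Bbs12 and Bbs10, whose products help to assemble the BBSome, were the lowest at 17.7 and 12.5 TPM.

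The IFT-B genes ranged 3.49-fold. Ift20, which also works at the Golgi, was at 157 TPM, the outer subunit Ift172 at 121, Ift74 at 113, the core scaffold gene Ift88 at 97.0, Ift52 at 90.3 and Ift81, which binds tubulin with Ift74, at 83.2 TPM. The outer subunits Ift57 and Ift80 were at 67.4 and 49.5 TPM, the core gene Ift46 at 49.8, and the Rab-like GTPases Ift22 and Ift27 at 53.0 and 45.2 TPM. In IFT-A, the small subunit gene Ift43 was at 168 TPM, Ift140 at 71.7 and Ift122 at 40.2 TPM. Among the ARL genes, Arl3, which releases lipid-modified proteins in the cilium, was at 148 TPM, Arl6, which recruits the BBSome to membranes, at 116 TPM and Arl13b, an activator of Arl3, at 60.5 TPM. Tulp3, an adaptor that carries receptors with IFT-A, was at 35.3 TPM and Cep290, a structural protein of the gate at the cilium base, at 22.7 TPM.

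**Figure D1:**
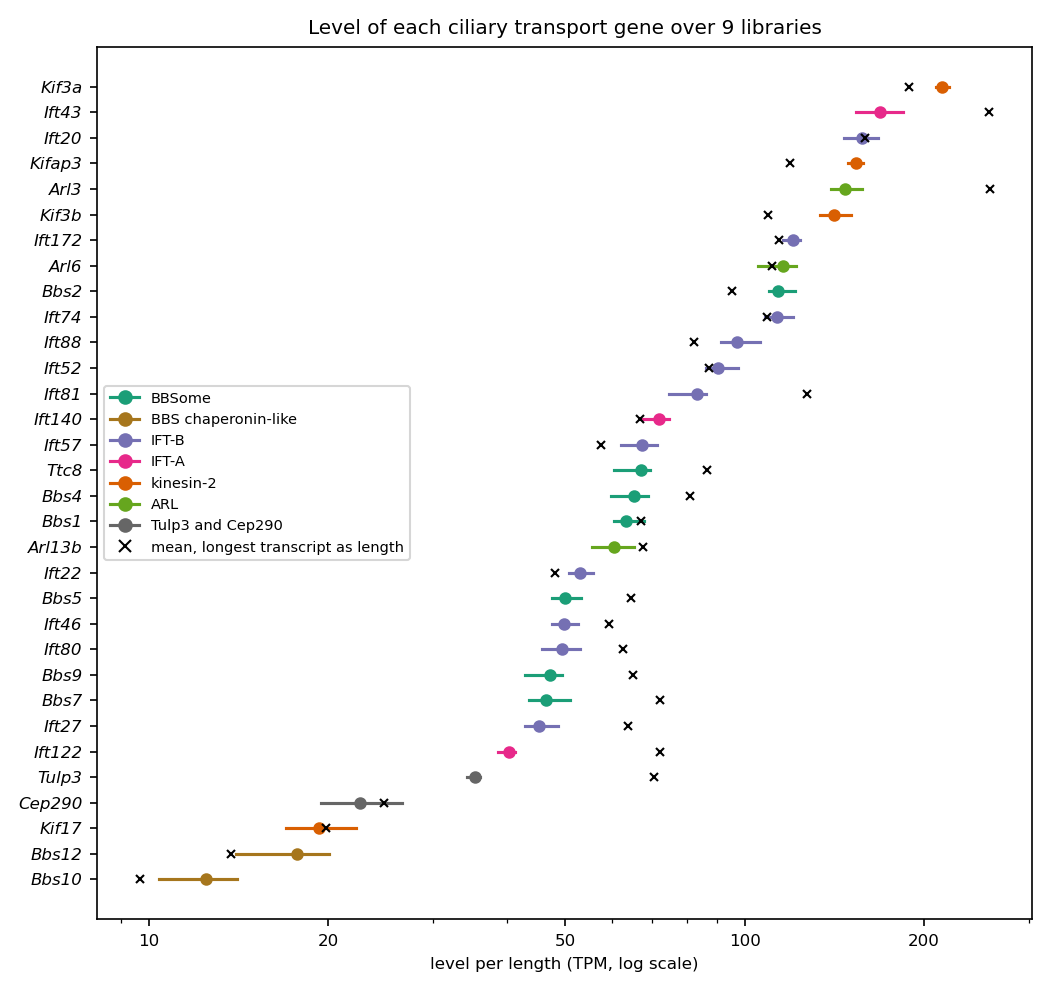
Level of each of the 32 genes in TPM on a log axis, with points at the mean over 9 libraries, bars from the lowest to the highest library and colours for the complex. Levels run from 215 TPM for Kif3a to 12.5 TPM for Bbs10, and crosses give the mean when the longest transcript is used as the length.

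In this order, the libraries of neighbouring genes overlapped except after Kif3a, Kif3b, Ift74, Ift52, Ift27, Ift122 and Tulp3. Genes further apart in a stretch could still be separate, as Ift43 was from Kif3b. The order also depended on the length used. With the longest transcript in place of merged exons, 6 of the 32 levels moved by over 1.5-fold, the most for Tulp3, from 35.3 to 70.3 TPM, and the highest levels were those of Arl3 at 258 and Ift43 at 257 TPM, ahead of Kif3a at 189 TPM, while 9 of the 10 highest and all of the 4 lowest genes were shared.

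The 32 genes varied little between libraries. The coefficient of variation (CV) of CPM over the 9 libraries had a median of 4.07% for the 32 genes and of 5.58% for the 11754 genes at or above the lowest of them, which averaged 9.42 CPM. These 11754 genes were not matched to the 32 in level. The median was 4.79% for 29 other ciliary transport genes and 4.94% for 23 genes of the transition zone and basal body. Kif3a was the steadiest, between 187 and 195 CPM in the 9 libraries, with a CV of 1.36% where read counting alone gives 1.39%. Tulp3 followed with a CV of 1.41%. A CV of 8% or more was seen in Bbs12, Bbs10, Kif17 and Cep290, and the first 3 of these are among the lowest genes in reads. Bbs12 had a CV of 10.2%, where read counting alone gives 5.90%, and Bbs10 had 9.98%, where counting gives 6.29%. Kif17 had 8.71%, where counting gives 4.10%, and Cep290 had 8.43%, where counting gives 2.38%. Such parts combine as squares, so counting explains only a part in each of them. With genotype in the model, the spread beyond counting fitted by edgeR was 8.66% for Bbs12 and 9.62% for Bbs10. It was 6.20% for Kif17 and 6.90% for Cep290. Summed over the 32 genes, CPM ran from 2718 in heterozygous replicate 1 to 2852 in homozygous replicate 1. In heterozygous replicate 1, which also carried more vomeronasal reads, 25 of the 32 genes were below their own mean and 10 had their lowest value, the largest such number among the 9 libraries. The part of the vomeronasal reads in this was not tested.

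**Figure D2:**
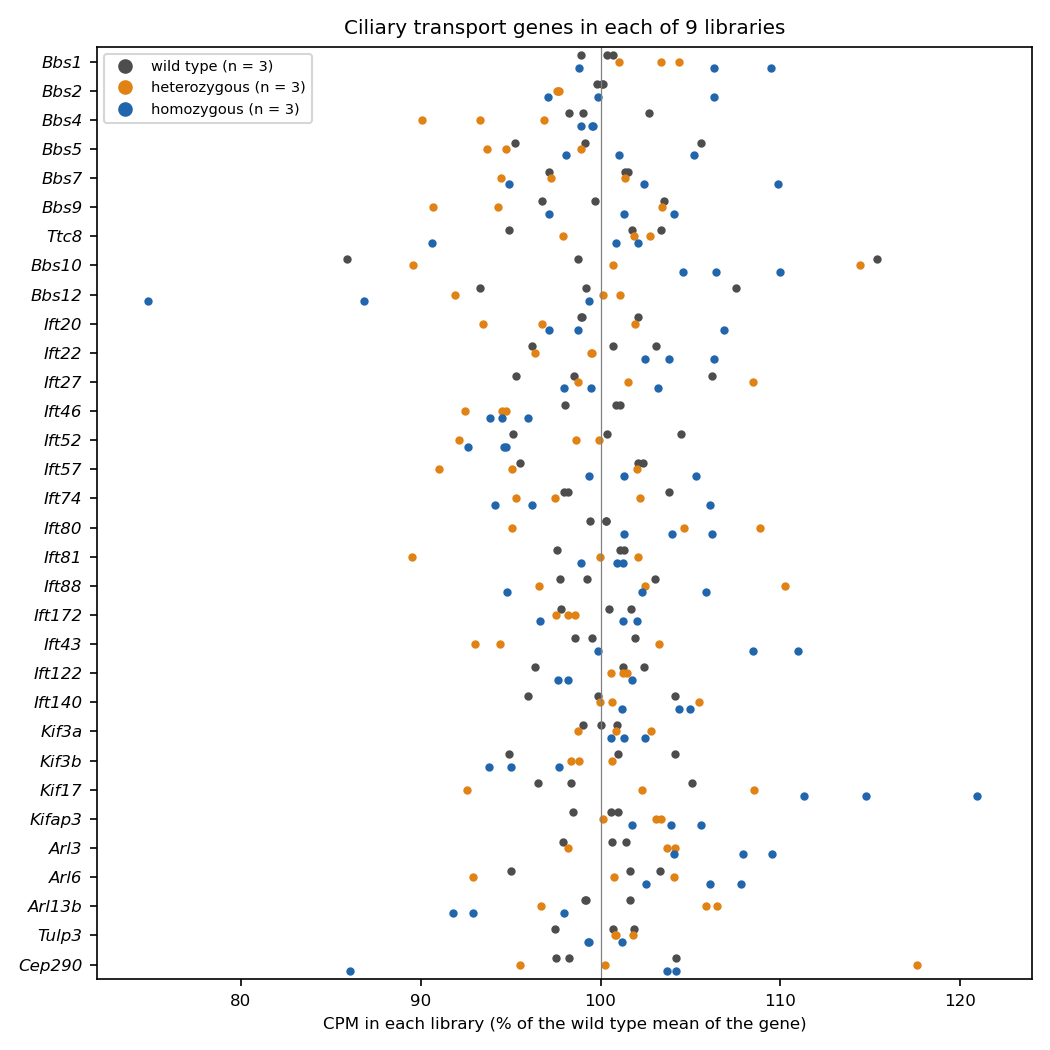
CPM of each of the 32 genes in each library, as a percent of the wild-type mean of that gene, with 1 point per library, coloured by genotype (3 libraries each). Most points lie near 100 percent, and the widest scatter is that of Bbs12 and Bbs10.

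The first comparison asked whether loss of both enhancer copies goes with a change in these genes. No member was called in homozygous against wild-type mice at an adjusted p of 0.05 in the quasi-likelihood test of edgeR, where 0.0495% of all genes were called (10 genes), and the lowest adjusted p among the 32 was 0.44. DESeq2 called no member either, but gave Kif17, Bbs10 and Bbs12 no adjusted p. At an unadjusted p under 0.05, 2 of the 32 passed in edgeR, beside 9.26% of all genes, and 1, Kif17, passed in DESeq2. Here and below, the share of all genes is that of edgeR, and DESeq2 counts have no such share beside them. The median log2 fold change was 0.014 for the 32 genes, with 20 higher and 12 lower, and -0.00057 for all genes. Without homozygous replicate 1 this median was 0.00020. The groups did not overlap in CPM for 7 genes, against 15.4% of all genes. Of these 7, Ift80, Kif17, Kifap3 and Arl3 were higher in homozygous mice and Ift46, Ift52 and Arl13b were lower.

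Kif17 was at 21.8, 20.1 and 20.5 CPM in wild-type mice and at 23.1, 23.9 and 25.1 CPM in homozygous mice. The lowest homozygous library was above the highest wild-type one, with means of 24.0 ± 1.02 and 20.8 ± 0.934 CPM (SD, n = 3). The log2 fold change of Kif17 was 0.21 (SE 0.077, unadjusted p = 0.0152, adjusted p = 0.44, edgeR). Arl3 was at 86.5, 89.6 and 88.9 CPM in wild-type mice and at 95.3, 91.9 and 96.7 CPM in homozygous mice. Its groups did not overlap either, and the log2 fold change was 0.10 (SE 0.043, unadjusted p = 0.0357, adjusted p = 0.511, edgeR). Ift46 was at 80.5, 83.1 and 82.9 CPM in wild-type mice and at 77.7, 78.9 and 77.1 CPM in homozygous mice. The log2 fold change of Ift46 was -0.077 (SE 0.041, unadjusted p = 0.0779, adjusted p = 0.603, edgeR), and like the other genes it was not called.

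The intervals of the folds were narrow. For every one of the 32 genes the 95% interval of the fold lay between 1/1.5 and 1.5, and for 29 of them between 1/1.2 and 1.2. Of the 11754 genes at or above the lowest member, 98.6% and 75.8% had intervals inside these limits. The widest bounds were 0.739 for Bbs12 and 1.30 for Kif17. The BBSome subunits had log2 fold changes between -0.030 and 0.069 and those of IFT-B between -0.089 and 0.060. Per the study, neurons that express Taar genes are a very small share of the MOE. A change confined to them could therefore lie inside these limits, here and in the comparisons below. The intervals bound levels in the whole tissue only.

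The levels of cell type markers were read beside this comparison. The summed level of 12 mature neuron markers was 9419 to 9705 CPM in wild-type mice and 9823 to 10602 CPM in homozygous mice, with 11 of the 12 higher and a median log2 fold change of 0.083. The summed level of 25 motile cilia markers was 1552 to 1682 CPM in wild-type mice and 1459 to 1549 CPM in homozygous mice, with 22 of the 25 lower and a median log2 fold change of -0.076. No marker of either list was called, and 4 and 6 of them passed an unadjusted p of 0.05 in edgeR, beside 9.26% of all genes. With the level of the neuron markers in the fit, still no member was called and the median log2 fold change of the 32 genes was -0.0085. The log2 fold change of Kif17 was then 0.11 and that of Arl3 0.057, and with the motile cilia level in the fit they were 0.15 and 0.090. With the mean log2 CPM of the vomeronasal receptor genes in the fit instead, 0 members were called. The median of the 32 genes was then 0.051, with Kif17 at 0.18 and Arl3 at 0.14. The libraries with more vomeronasal reads were heterozygous or homozygous, so this level and genotype cannot be fully told apart.

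**Figure D3:**
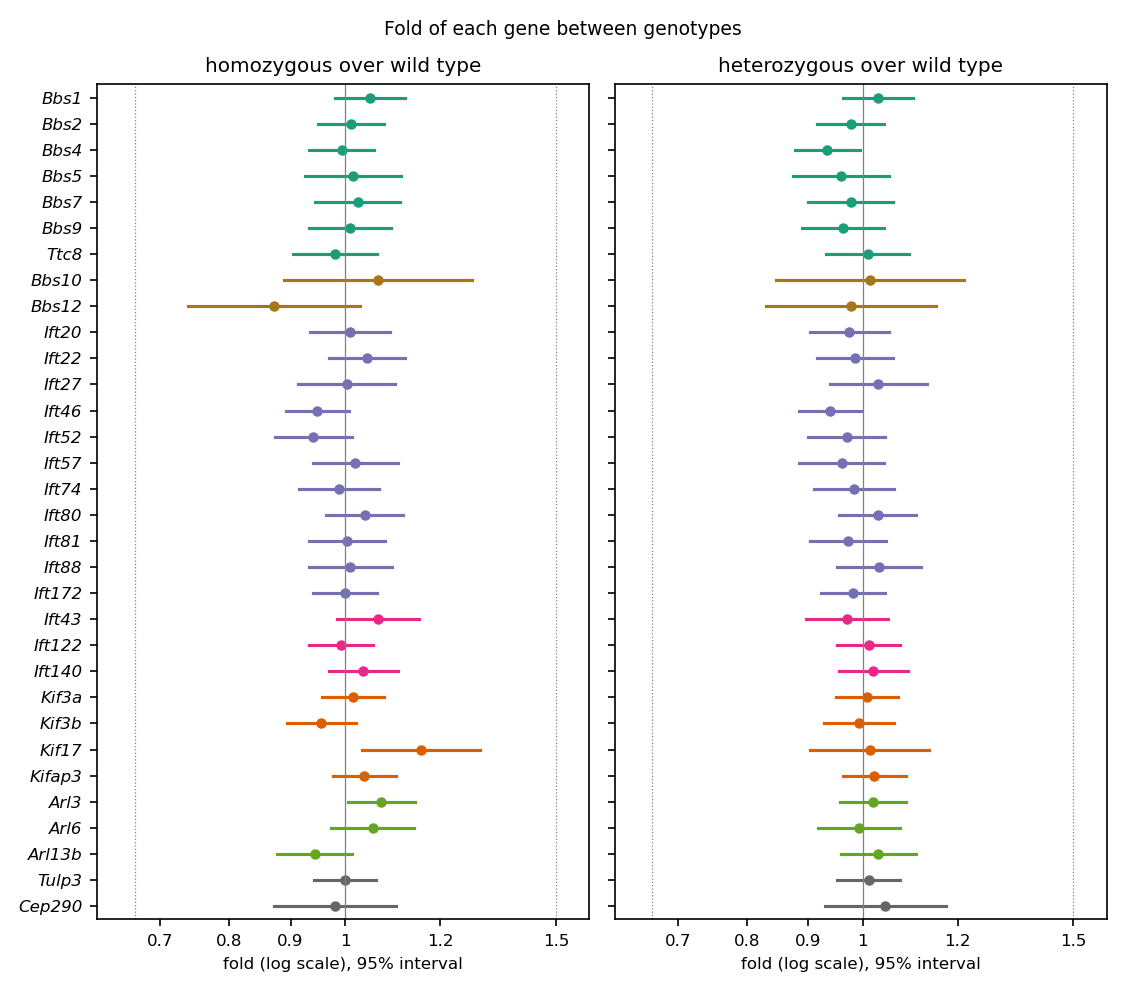
Fold of each of the 32 genes in homozygous over wild-type mice (left) and heterozygous over wild-type mice (right) on a log axis, with points for the fold and bars for its 95% interval from edgeR (3 libraries per genotype). All bars lie between the dotted lines at 1/1.5 and 1.5.

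The second comparison concerned mice with one deleted copy. No member was called in heterozygous against wild-type mice, where 0.00495% of all genes (1 gene) were called, and the lowest adjusted p was 1. At an unadjusted p under 0.05, 2 of the 32 passed in edgeR, beside 3.25% of all genes, and 1 in DESeq2. The groups did not overlap for 4 genes, against 8.68% of all genes, of which Bbs1 was higher in heterozygous mice and Bbs2, Bbs4 and Ift46 were lower. The median log2 fold change was -0.011 for the 32 genes, with 15 higher and 17 lower, and 0.0033 for all genes. The sign of this median rested on heterozygous replicate 1, without which it was 0.011. Bbs4 was at 98.1, 103 and 98.9 CPM in wild-type mice and at 89.9, 93.1 and 96.7 CPM in heterozygous mice. The log2 fold change of Bbs4 was -0.098 (SE 0.043, unadjusted p = 0.035, adjusted p = 1, edgeR). Ift46 was at 76.0, 77.7 and 77.9 CPM in heterozygous mice, below every wild-type library, with a log2 fold change of -0.091 (SE 0.041, unadjusted p = 0.0414, adjusted p = 1, edgeR). Ift57 followed in rank with -0.059 (SE 0.056, unadjusted p = 0.305, adjusted p = 1, edgeR), a value that ran from -0.11 without heterozygous replicate 2 to -0.025 without heterozygous replicate 3. All 32 intervals lay within 1.5-fold and 30 within 1.2-fold, and of the genes at or above the lowest member 99.3% and 82.4% did. The bounds ran from 0.830 for Bbs12 to 1.21 for Bbs10.

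Homozygous and heterozygous mice were compared next. Any pair of the 3 comparisons shares the libraries of one genotype, so that their values are not independent. No member was called, beside 0.114% of all genes (23 genes), and the lowest adjusted p was 0.377. At an unadjusted p under 0.05, 3 of the 32 passed in edgeR and 3 in DESeq2, beside 10.4% of all genes in edgeR. The groups did not overlap for 4 genes, against 14.1% of all genes, with Bbs4, Ift22 and Kif17 higher in homozygous mice and Kif3b lower. The median log2 fold change was 0.024, with 22 higher and 10 lower, against -0.0017 for all genes, and it was 0.0088 without heterozygous replicate 1 and 0.046 without heterozygous replicate 3.

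Arl13b was at 74.3, 81.9 and 81.4 CPM in heterozygous mice and at 75.3, 70.6 and 71.5 CPM in homozygous mice. These groups overlapped through heterozygous replicate 1, and the log2 fold change was -0.13 (SE 0.049, unadjusted p = 0.0187, adjusted p = 0.377, edgeR). Ift43 was at 63.4, 64.3 and 70.3 CPM in heterozygous mice and at 75.6, 68.0 and 73.9 CPM in homozygous mice, with a log2 fold change of 0.14 (SE 0.053, unadjusted p = 0.0226, adjusted p = 0.396, edgeR). Kif17 was at 21.3, 19.2 and 22.6 CPM in heterozygous mice, with a log2 fold change of 0.19 (SE 0.077, unadjusted p = 0.0242, adjusted p = 0.405, edgeR). With the vomeronasal receptor level in the fit, the log2 fold changes were -0.085 for Arl13b, 0.18 for Ift43 and 0.18 for Kif17. Without this level, all 32 intervals lay within 1.5-fold and 29 within 1.2-fold. Of the genes at or above the lowest member, 98.7% and 73.3% did. The bounds ran from 0.755 for Bbs12 to 1.28 for Kif17. For any difference among the genotypes, 0.0643% of all genes and no member were called, with a lowest adjusted p of 0.534 in edgeR and, at an unadjusted p under 0.05, 1 member, Kif17, beside 8.45% of all genes.

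Markers of other cell types were read in the same fit, and Ugt2a1, an enzyme of the sustentacular cells that support the neurons, was the only gene of any list called between genotypes. It was at 692, 665 and 613 CPM in wild-type mice, at 639, 686 and 656 CPM in heterozygous mice and at 540, 525 and 560 CPM in homozygous mice. In homozygous against heterozygous mice its log2 fold change was -0.29 (SE 0.049, adjusted p = 0.0383, edgeR). Against wild-type mice it was -0.28 and not called (SE 0.049, adjusted p = 0.0799, edgeR). The 6 sustentacular markers did not move together. Against heterozygous mice 4 were higher and 2 lower (median log2 fold change 0.012), and against wild-type mice 2 were higher and 4 lower (median -0.027).

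Genes of the same pathway that are not among the 32 were read from lists. Of 29 other ciliary transport genes and 23 genes of the transition zone and basal body, none was called in any pair of genotypes by edgeR. At an unadjusted p under 0.05, 2, 0 and 5 of the transport genes passed in homozygous against wild-type, heterozygous against wild-type and homozygous against heterozygous mice, and 0, 0 and 4 of the transition zone genes. Of all genes, 9.26%, 3.25% and 10.4% passed in these comparisons. Pde6d, which carries lipid-modified proteins to cilia, had the smallest p of the transport genes in homozygous against wild-type mice, with a log2 fold change of 0.16 (SE 0.057, unadjusted p = 0.0151, adjusted p = 0.439, edgeR). In homozygous against heterozygous mice the smallest p among transition zone genes was that of Cc2d2a, with a log2 fold change of -0.18 (SE 0.057, unadjusted p = 0.00736, adjusted p = 0.302, edgeR).

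The tissue holds both the immotile cilia of neurons and the motile cilia of respiratory cells. The mean log2 CPM of 25 motile cilia markers ran from 5.17 in heterozygous replicate 3 to 5.59 in heterozygous replicate 2, and their summed level from 1396 to 1772 CPM. Dnah5, a dynein arm motor of motile cilia, ran from 53.0 to 143 CPM and Sntn, a protein of the tips of such cilia, from 9.40 to 22.0 CPM. These were among the widest of the 25, whose CV had a median of 8.40% and a highest value of 33.7%. Others moved less, with Dnah11 from 125 to 144 CPM and Cfap44 from 250 to 277 CPM. The mean log2 CPM of 12 mature neuron markers ran from 9.04 to 9.21. For each gene, the slope of its log2 level on each marker level was fitted over the 9 libraries with genotype in the model. No member was called on either level. On the neuron level 0 of its own 12 markers were called either (median slope 1.13, lowest adjusted p 0.0524, edgeR). On the motile cilia level 8 of its own 25 markers were called. The neuron fit thus missed the genes that define the level, and its lack of calls cannot show that a gene does not follow neurons. On the neuron markers 0.094% of all genes had a called positive slope and 0.851% a called negative one, and on the motile cilia markers 0.965% and 0.0643%.

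Cep290 stood at the end of both orders. It was at 63.6, 63.1 and 67.5 CPM in wild-type mice, at 64.9, 76.1 and 61.8 CPM in heterozygous mice and at 67.1, 67.5 and 55.7 CPM in homozygous mice. The highest value belonged to heterozygous replicate 2, where the motile cilia markers were also highest, and the lowest to homozygous replicate 3. Its slope was 0.76 on the motile cilia markers (SE 0.19, unadjusted p = 0.00119, adjusted p = 0.0822, edgeR) and -2.42 on the neuron markers (SE 0.66, unadjusted p = 0.00187, adjusted p = 0.0954, edgeR). Neither passed the threshold, and how the fits without single libraries differed is given with the dependence on processing. The next slopes on the motile cilia markers were 0.32 for Ift57 and 0.25 for Ift74, and the lowest were -0.65 for Bbs10, -0.45 for Kif17 and -0.32 for Ift43. On the neuron markers the highest were 1.21 for Bbs10 and Kif17 and 1.17 for Ift43, and after Cep290 the lowest were -0.87 for Ift74 and -0.81 for Ift57. Of these 12 slopes, 9 moved by over 1.5 times when a single library was left out, the exceptions being both slopes of Cep290 and that of Ift43 on the neuron markers. On the neuron markers Ift74 was at -0.15 without homozygous replicate 2 and Ift57 at -0.33 without heterozygous replicate 3. The median slope of the 32 genes was -0.067 on the motile cilia markers, with 9 positive, and 0.32 on the neuron markers, with 22 positive, against -0.0062 and -0.012 for all genes. Both marker levels come from the same 9 libraries, and with both in one fit 0 genes of the whole table were called on the motile cilia level and 1 on the neuron level.

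**Figure D4:**
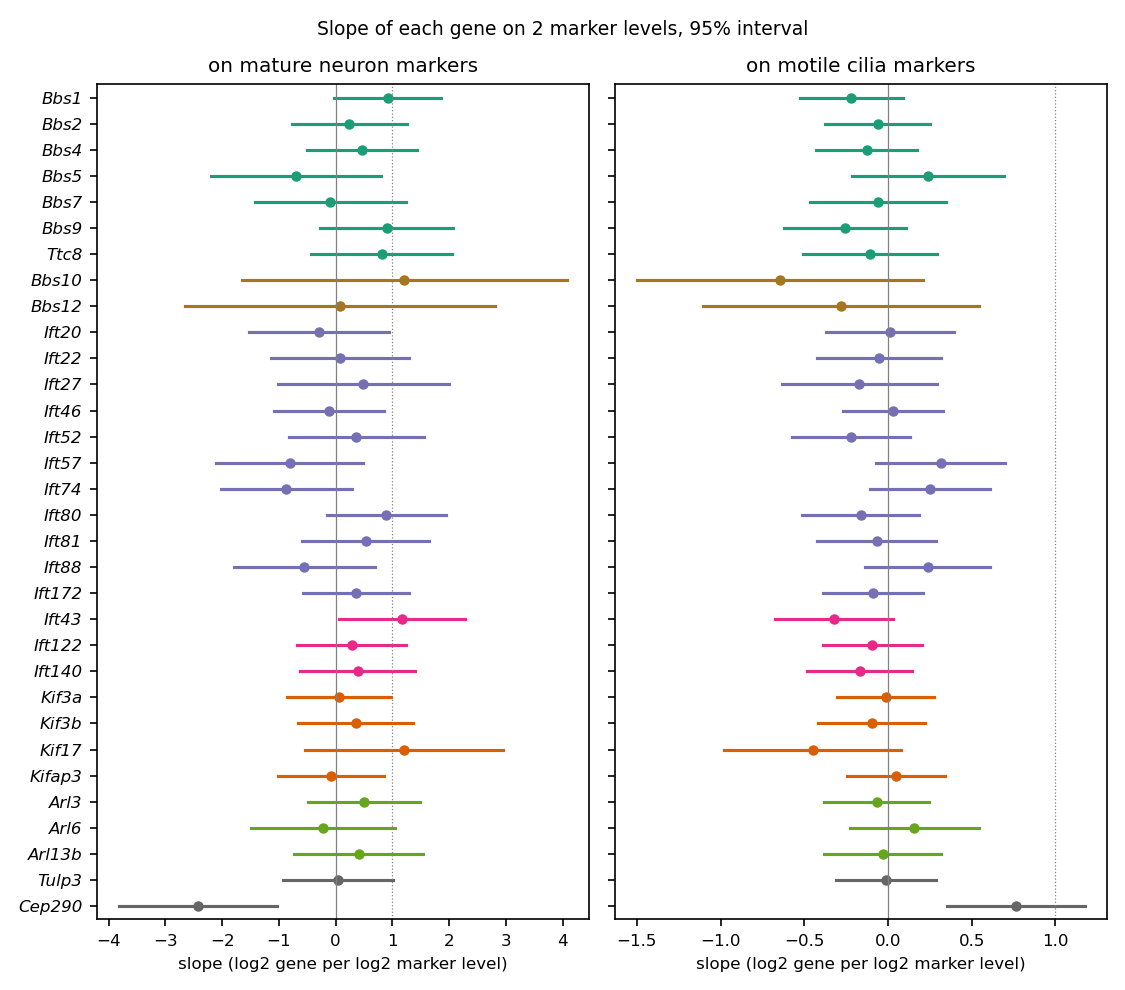
Slope of each of the 32 genes on the level of mature neuron markers (left) and of motile cilia markers (right) over 9 libraries, with genotype in the model and bars for the 95% interval. Cep290 has the lowest slope on the left, -2.42, and the highest on the right, 0.76, and dotted lines mark a slope of 1.

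Lztfl1, which controls the movement of the BBSome and belongs to the list of other transport genes, was called on both levels. Neither call held under all alternatives. It was at 59.6, 61.4 and 61.6 CPM in wild-type mice, at 59.2, 70.1 and 53.1 CPM in heterozygous mice and at 61.9, 68.9 and 57.2 CPM in homozygous mice. Its slope was 0.94 on the motile cilia markers (SE 0.17, adjusted p = 0.00905, edgeR) and -2.80 on the neuron markers (SE 0.64, adjusted p = 0.0468, edgeR). With the replicate number as a block, the adjusted p was 0.194 on the motile cilia markers and 0.39 on the neuron markers (edgeR). Same-numbered mice did not deviate together, and the block leaves fewer degrees of freedom, which by itself can raise a p-value. The motile cilia call was also lost without heterozygous replicate 2 (adjusted p = 0.314, edgeR) and without heterozygous replicate 3 (adjusted p = 0.0976, edgeR). The neuron call was lost when any library other than heterozygous replicate 1 was left out (adjusted p 0.0672 to 0.293, edgeR).

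**Figure D5:**
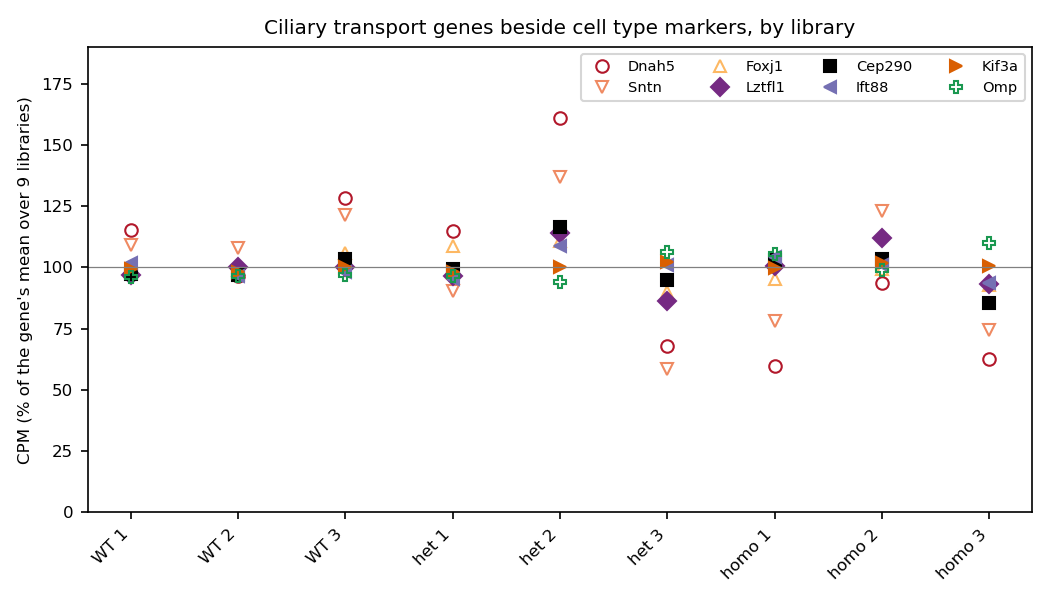
CPM of 8 genes in each library as a percent of the mean of that gene over 9 libraries, with filled symbols for ciliary transport genes and open symbols for markers of motile cilia (Dnah5, Sntn, Foxj1) and mature neurons (Omp). Kif3a stays near 100 percent in all 9 libraries, while Dnah5 and Cep290 are both highest in heterozygous replicate 2.

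Exons of 7 of the 32 genes overlapped exons of another annotated gene, 6 of them on the opposite strand, and the overlap was at most 7.86% of the exon bases, in Ift57. For Cep290 it was 7.58%, under 4930430F08Rik. The library kit marks strand, but the strand setting of the counting is not given in the sources used here, so reads of these stretches may be assigned to either gene or to none.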

How the data were processed

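Reads from polyA-selected libraries of 9 MOE samples, 3 per genotype, were mapped by the authors to mm10 (GRCm38). The deposited table gives raw counts per gene, which the authors made with Trimmomatic 0.36, HISAT2 2.1.0 and, per the processing notes, HTSeq 0.6.1p1, while the study's methods name featureCounts. The annotation and strand setting are not given in the sources used here. Of the listed reads 57.4 to 60.0% fell in genes, and rows of reads outside genes were left out. A second deposited table of normalized values, for which the notes name DESeq2 1.20.0, was not used.

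Genes with at least 10 counts over the 9 libraries were kept. After TMM normalization, the edgeR 4.0.16 quasi-likelihood test (R 4.3.3) was run with a genotype term on the 9 libraries together, which pools their spread, and p-values were adjusted by Benjamini-Hochberg over 20213 genes at 0.05. Marker slopes used the same fit with the mean log2 CPM of a marker list (prior count 2) added. Merged exon lengths and positions came from GENCODE M21. TPM was computed from the counts. The pipeline was tested on simulated data.

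The 32 genes and all lists were chosen with earlier results of these data known. All 32 are named with their level. Statistics are printed for unadjusted p under 0.05 or the 3 smallest p, and slopes for the 3 highest and 3 lowest. Genes of other lists are named when called, for the smallest p of a list, or as a check. The listed genes Rp2 and Deup1 were matched by synonym.

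Alternatives were DESeq2 size factors, DESeq2 1.42.0, other filters on low counts, a replicate block and the 6 libraries compared alone. Others were marker and vomeronasal receptor covariates, and leaving out each library or the 3 with most vomeronasal reads. Same-numbered mice did not deviate together (correlations -0.21 to 0.092), so the numbers were not taken as pairs.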

Additional observations from a re-analysis of the deposited data

How the results depend on the processing

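The count of members called between genotypes stayed at 0 under every alternative that kept more than 1 library per genotype. Without the 3 libraries with most vomeronasal reads, homozygous replicate 1 stands alone in its group, and that genotype fit is read for direction only. All 170 log2 fold changes of named members with an adjusted p under an alternative kept their direction. Outside that fit they also kept their side of the threshold. With the replicate number as a block, 0 members were called in each comparison of genotypes and on both marker levels, and the adjusted p of the Cep290 slope was 0.45 on the neuron markers and 0.464 on the motile cilia markers (edgeR). In DESeq2, 3 members, among them Kif17, had no adjusted p in homozygous against wild-type mice. With the 3 libraries with most vomeronasal reads left out, the median log2 fold change in heterozygous against wild-type mice turned to 0.011. The number of members called on the motile cilia markers was 1, Cep290, with no filter on low counts (slope 0.76, adjusted p = 0.0472, edgeR) and with the 3 libraries with most vomeronasal reads left out (0.71, adjusted p = 0.0462, edgeR), and from 0 to 1 when single libraries were left out, with the call made without homozygous replicate 1 (0.82, adjusted p = 0.0309, edgeR). On the neuron markers it was also from 0 to 1, with Cep290 called without heterozygous replicate 1 (-2.76, adjusted p = 0.0222, edgeR). That fit called 448 genes of the whole table, against 191 with all 9 libraries. With the other marker list added, slopes on the neuron markers turned to -2.55 for Bbs10, 0.34 for Ift57 and -0.19 for Kif17, and the Bbs10 slope ran from -0.16, without heterozygous replicate 3, to 2.52 when single libraries were left out. The cause of these changes was not tested. Over all genes, DESeq2 called 63, 3 and 130 genes in homozygous against wild-type, heterozygous against wild-type and homozygous against heterozygous mice, against 10, 1 and 23 in edgeR, and 190 were called in the last without heterozygous replicate 3. The Lztfl1 slope kept its direction under every alternative. Beside the losses given above, its call on the neuron markers was lost with DESeq2 size factors, with filterByExpr, with no genotype term, with the other marker list added and with the 3 libraries with most vomeronasal reads left out (adjusted p 0.0581, 0.0607, 0.392, 0.996 and 0.0526, edgeR), and its call on the motile cilia markers with no genotype term, with the other marker list added and with Foxj1 alone as the marker (adjusted p 0.0873, 1 and 0.12, edgeR).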
